A study of Mus musculus with 32 samples.

Results

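The comparison described here is that of primary colorectal tumor (TP) with liver metastasis (TM) in a mouse model, 8 of the 32 samples of the series. Members were chosen by title: the 4 samples titled TP and the 4 titled TM, numbered 1 to 4 in each group. The labels call the TP samples colorectal cancer primary cells and the TM samples tumor liver metastasis cells. Per the methods of the study, C26 cells, a mouse colon carcinoma line that grows in Balb/c mice, were placed in the spleen of male Balb/c mice aged 6 to 8 weeks, 2000000 cells per animal. The design drawing takes the primary tumor from the spleen and the metastasis from the liver. The text of the study gives 14 days from inoculation to isolation and the drawing 15 days. Both groups come from the same line and strain, and the labels name no further treatment or allele for either. The methods do not say how TP and TM cells were isolated, and they call the replicates of each mRNA sample biological. No label ties a sample to an animal, so the p-values below measure the spread between these samples. The other 24 samples of the series are endothelial, Ito and Kupffer cells of the liver with and without tumor.

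In this model tumor cells leave the spleen with the portal blood and lodge in the liver sinusoids, where they meet Kupffer cells, stellate cells and the sinusoidal endothelium. A growing metastasis has to divide, to attach to or remodel the matrix around it and to live with the interferons and chemokines of its surroundings. *S100a4*, a calcium-binding protein known for its link with motility and metastasis, and *Mki67*, the Ki-67 antigen of dividing cells, are used as markers of the tumor cells. A comparison of primary tumor with metastasis asks which of these programs differ between both sites.

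The mRNA was measured on 2-colour Agilent arrays. TM samples all carried the Cy3 dye and TP samples all carried Cy5, and TP and TM samples of the same number shared an array, so dye and group cannot be told apart. The 4 tumor arrays shared a slide with those of the Kupffer cells. Levels are log2 of the dye-normalized and quantile-normalized signal, and a difference of 1 on this scale is a 2-fold difference. Each channel read 59305 spots, of which 38.4% (TP replicate 4) to 50.3% (TM replicate 4) carried Agilent's flag for signal well above background in the 8 tumor samples, and no spot was saturated. The 55648 probes with a value in all 8 samples were tested, and 19356 of them were well above background in all 8. The latter are called bright here. Groups were compared with limma, and calls were made at a Benjamini-Hochberg adjusted p under 0.05 over all 55648 probes.

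TM replicates 2 and 3 stood apart from the other 6 samples, before any comparison of groups. Across the 19356 bright probes the Pearson correlation of TM replicate 2 with TM replicate 3 was 0.994, and that of TM replicate 1 with TM replicate 4 was 0.988. Between these pairs it was 0.939 to 0.944, which is lower than any correlation between TP samples (0.973 to 0.994). TM replicate 1 correlated best with TP replicate 3 (0.992) and TM replicate 4 best with TP replicate 2 (0.993), whereas TM replicates 2 and 3 reached 0.933 to 0.951 with the TP samples. The points of these correlations are probes of the same arrays and share slide, platform and normalization.

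The spread within TM was accordingly wider than within TP. The median SD over 4 samples was 0.320 in TM and 0.267 in TP. An SD above 1 was found for 1257 bright probes in TM (6.49%) and for 223 in TP (1.15%), and an SD above 2 for 134 and 6 probes. Among the 24245 probes that were well above background in at least 4 of the 8 samples, 6.57% lay at least 4-fold from the median of the other 7 samples in TM replicate 2 and 6.12% in TM replicate 3. In TM replicate 2 these were 343 probes above and 1250 below, and in TM replicate 3 342 above and 1143 below. The share was 1.00 to 1.40% in TM replicates 1 and 4 and in TP replicates 1 to 3, and 2.59% in TP replicate 4. The labels were kept as given. For part of the results that rest on TM replicates 2 and 3 a value without them is given too, a choice made after seeing the data.

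Few probes separated primary tumor from metastasis, and most of those were dim. Of the 55648 probes 223 were called higher in TP (0.401%) and 51 lower (0.0916%). The median difference of all probes was -0.01. Of the 223 higher probes 207 were not bright and for 193 no TM sample was well above background. None of the 51 lower probes was well above background in a TP sample, and 38 of them were so in none of the 8 samples. A difference under 2-fold was found for 96.4% of the bright probes.

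Among bright probes 16 were called higher in TP (0.0827%) and 0 lower. At an unadjusted p under 0.05 limma counted 2010 bright probes (10.4%), 964 higher and 1046 lower, and an equal-variance test per probe, the test the study names, called 10 higher and 2 lower after adjustment. With the array shared by same-numbered samples as a block, 60 probes were called higher and 0 lower, of which 2 were bright. Without TM replicates 2 and 3 the counts were 143 higher and 92 lower, of which 2 higher and 0 lower were bright.

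The liver cells carried the dyes in the same way, with Cy3 on cells of control mice and Cy5 on cells of tumor-bearing mice, and so give values beside these calls. Of the 223 probes called higher in TP, 212 were also brighter in Cy5 than in Cy3 over the 12 and 12 liver cell channels, by a median of 0.75, against a median of 0.00 over all probes. All 16 bright ones were brighter in Cy5 there, by a median of 0.42. Of the 51 probes called lower in TP, 6 were brighter in Cy5. What part of the calls is that of the dye was not tested, since no dye was swapped.

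**Figure D1:**
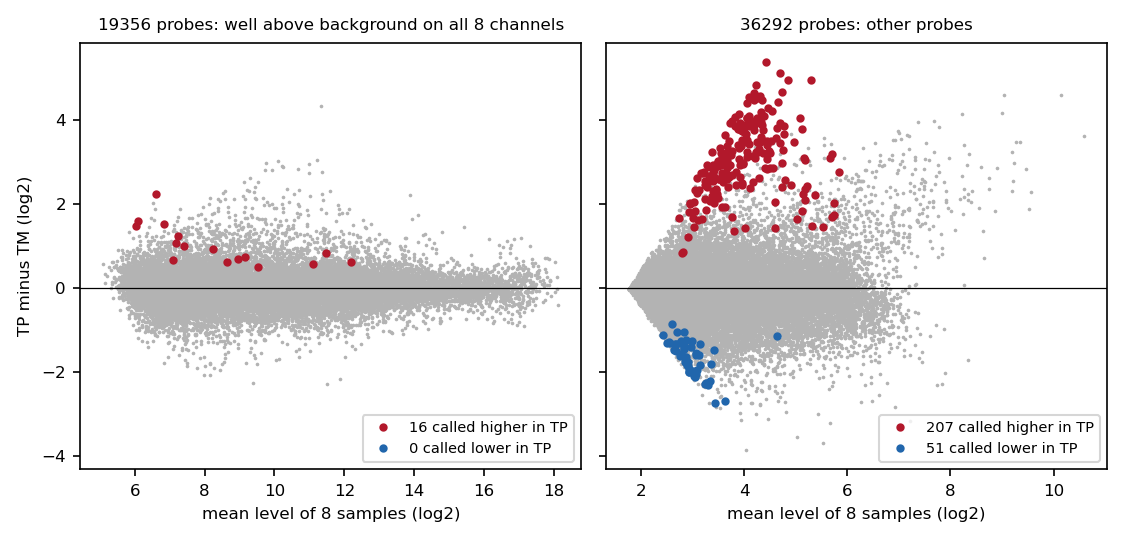
Difference between TP and TM (y axis, log2) against the mean level of the 8 tumor samples (x axis, log2) for the 19356 bright probes (left) and the other 36292 (right). Coloured points are called probes. The 16 called bright probes lie above 0, and most of the called probes of the right panel lie at low levels.

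The 16 bright probes carried 11 gene symbols. The largest difference was that of *Yars*, tyrosyl-tRNA synthetase, which charges tRNA with tyrosine. Its probe lies at chr4:128896792-128896851 on the plus strand of mm9, and its first 30 of 60 bases are shown because it is the bright probe with the clearest separation of both groups.
Yars probe: tgccgatgtctggaaaacagcagtcacagc
The level of *Yars* was 5.34, 5.49, 5.45 and 5.61 in TM replicates 1 to 4 and 7.68, 7.76, 7.33 and 8.13 in TP replicates 1 to 4. All TP samples lay above all TM samples, and TM replicates 2 and 3 did not stand apart. The difference was 2.25 (SE 0.17), a 4.77-fold higher level in TP (limma adjusted p = 0.0019). The limma adjusted p was 0.051 with the array as a block and 0.0501 without TM replicates 2 and 3, both above the threshold. The difference was 2.25 without TM replicates 2 and 3 and 1.33 with normexp background correction. In the liver cells the Cy5 level of this probe exceeded that of Cy3 by 0.16.

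*Vwa5b2*, which codes for a protein with a von Willebrand factor A domain, followed with 6.07, 6.20, 5.79 and 6.22 in TM and 7.57, 7.59, 7.35 and 7.90 in TP. The difference was 1.53 (SE 0.15, limma adjusted p = 0.0066), and the limma adjusted p was 0.048 with the array as a block. Without TM replicates 2 and 3 the difference was 1.46 and the limma adjusted p 0.066. The vomeronasal receptor gene *Vmn1r204* was 5.09, 5.32, 5.03 and 5.78 in TM and 6.70, 6.72, 6.52 and 7.18 in TP, with a difference of 1.48 (SE 0.21, limma adjusted p = 0.042). The limma adjusted p was 0.045 with the array as a block. Without TM replicates 2 and 3 the difference was 1.35 and the limma adjusted p 0.324. With the dye difference of the liver cells subtracted they were 1.04 and 0.378. Groups did not overlap for either gene.

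The other 8 called genes differed by 0.51 to 1.01. They were *Ldb3*, a protein of the Z-disc of striated muscle (1.01), *Pes1*, which acts in the assembly of the large ribosomal subunit (0.83), *Arfip1*, which binds Arf GTPases (0.73), the olfactory receptor *Olfr319* (0.66), *Elp5*, a subunit of the Elongator complex that modifies tRNA (0.63), *Fdxacb1* (0.63), the Notch xylosyltransferase *Gxylt2* (0.56) and *Srek1ip1*, a partner of a splicing factor (0.51). Their adjusted p from limma lay between 0.022 and 0.047, and with the array as a block none of these 8 kept its call. Values did not overlap between groups for any of the 11 probes. A further probe was on the array for *Vwa5b2*, *Ldb3*, *Pes1*, *Elp5*, *Fdxacb1* and *Srek1ip1* and 2 further probes for *Gxylt2*. In none of them did the TP values lie above all TM values. For those of *Vwa5b2* and *Ldb3* no sample was well above background, so they have no signal to compare, and those of *Gxylt2* were not bright. *Elp5*, *Fdxacb1* and *Gxylt2* showed a larger Cy5 excess in the liver cells (0.87, 1.10 and 0.86) than their difference between TP and TM.

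**Figure D2:**
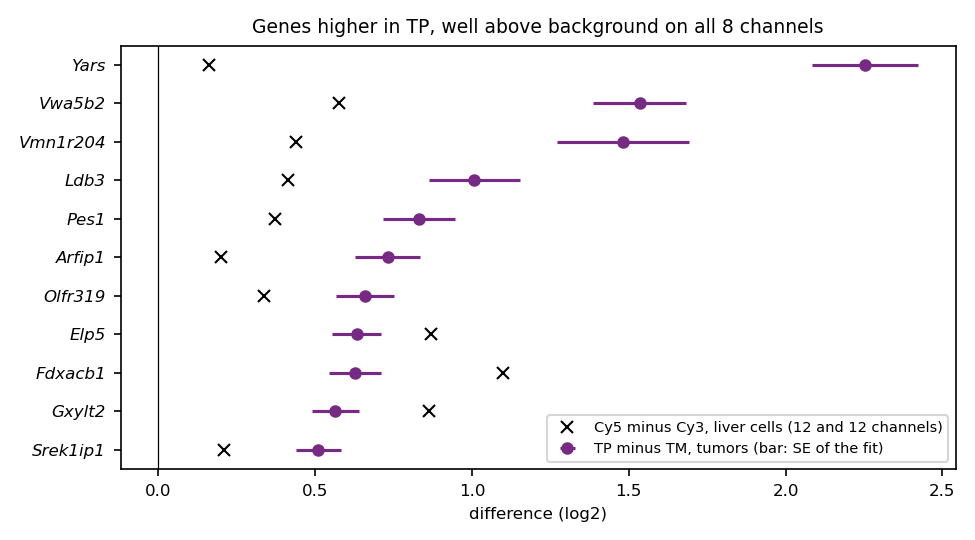
Difference between TP and TM (filled points, log2, bars show the SE of the limma fit, 4 and 4 samples) for the 11 named bright genes called higher in TP, and the mean Cy5 minus Cy3 difference of the liver cell channels (crosses). *Yars* is highest at 2.25, and the crosses of *Elp5*, *Fdxacb1* and *Gxylt2* lie right of their points.

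Complete separation of the groups was more frequent than a call. Called probes included, all 4 TP values lay above all 4 TM values for 564 bright probes (2.91%) and below them for 514 (2.66%). The 12 named genes with the largest differences among those lower in TP were all of this kind, and none was called. First among them was *Lama5*, the alpha 5 chain of laminin in basement membranes, whose probe lies at chr2:179911079-179911138 on the minus strand of mm9. Its first 30 bases are given since it marks the largest excess in metastasis.
Lama5 probe: tttgttcctcctgcccaacaactgtcagta
*Lama5* was 11.63, 13.96, 13.72 and 11.24 in TM replicates 1 to 4 and 9.71, 11.22, 10.03 and 10.45 in TP. TM replicates 2 and 3 were the highest, and the lowest TM sample exceeded the highest TP sample by a small margin. The difference was -2.29 (SE 0.71, limma adjusted p = 0.35), and -1.09 without TM replicates 2 and 3.

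Other matrix and adhesion genes of this kind were *Col4a1*, a chain of the type IV collagen of basement membranes (-1.33), and *Tns1*, tensin, which ties integrins to actin (-1.33). *Col4a1* was 8.66, 10.85, 10.27 and 8.75 in TM and 7.98, 8.51, 8.64 and 8.09 in TP. *Htt*, huntingtin, was 11.84, 14.13, 14.01 and 11.64 in TM and 11.49, 11.63, 11.53 and 11.47 in TP. In all 3 genes TM replicates 2 and 3 were the highest samples and TM replicates 1 and 4 lay nearer to the TP samples. Without TM replicates 2 and 3 the difference of *Htt* was -0.21, against -1.37 with them.

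A pair of genes in the same set did not follow that pattern. *Ctla2b*, a cathepsin inhibitor-like gene, was 8.19, 7.78, 7.88 and 8.42 in TM and 6.88, 5.53, 7.15 and 6.36 in TP, a difference of -1.59 (SE 0.36, limma adjusted p = 0.25). *Acvrl1*, the type I receptor ALK1 for BMP ligands, was 8.53, 9.02, 9.06 and 9.46 in TM and 8.31, 8.46, 7.53 and 7.11 in TP, a difference of -1.16 (SE 0.35, limma adjusted p = 0.33). For *Ctla2b* TM replicates 2 and 3 were the lowest of the TM samples, and for *Acvrl1* they lay between the other two. The remaining members of the set, *Mapk8ip3*, *Zbtb20*, *Zmynd8*, *Fam53b*, *Adck1* and *Echdc3*, differed by -1.33 to -1.12 and were highest in TM replicates 2 and 3. Further bright probes overlapped between groups for *Echdc3* (-0.22), *Fam53b* (-0.60), *Tns1* (-0.94), *Zmynd8* (-0.63) and *Mapk8ip3* (-1.07 and -1.47). Another bright probe of *Zmynd8* (-0.60) and a *Tns1* probe that was not bright (-1.81) did not overlap.

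Neither marker differed between primary tumor and metastasis by more than the spread between samples. The *S100a4* probe lies at chr3:90409908-90409967 on the plus strand and the *Mki67* probe at chr7:142881591-142881650 on the minus strand of mm9. Their first 30 bases identify the probes behind both markers.
S100a4 probe: ggcttcttcgcacatgtgcacagtgctgag
Mki67 probe: atactactgctactgcctgagtttaaggaa
*S100a4* was among the brightest probes, with 17.94, 16.44, 16.33 and 17.47 in TM and 16.96, 17.46, 17.56 and 17.47 in TP. TM held both the highest and the lowest values. The difference was 0.32 (SE 0.39, limma adjusted p = 0.75, two-sided exact permutation p = 0.371). In the liver cells the mean level was 7.54 in Cy3 and 9.14 in Cy5, so all 8 tumor samples were far above it.

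*Mki67* was 13.33, 10.10, 10.89 and 12.77 in TM and 12.36, 12.43, 12.74 and 13.55 in TP. The lowest of the 8 were TM replicates 2 and 3, whereas TM replicate 1 was above 3 of the 4 TP samples. The difference was 1.00 (SE 0.75, limma adjusted p = 0.63, two-sided exact permutation p = 0.343). The smallest p that 4 against 4 samples allow in this test is 0.0286. A second probe of each gene gave 0.22 and 1.06 (exact permutation p = 0.571 and 0.400). Without TM replicates 2 and 3 the differences were -0.34 for *S100a4* and -0.28 for *Mki67*, of the opposite sign. The mean level of *Mki67* in the liver cells was 7.36 in Cy3 and 7.90 in Cy5. With that dye difference subtracted its difference between TP and TM was 0.45.

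The 10 bright genes with the largest SD within TM showed the same arrangement of samples. They were chosen by their spread, which is given as a description without a test. Probes for *Btg3*, *Ripk3* and *Pmp22* are shown because they stand for this contrast among TM samples.
Btg3 probe, chr17:50839065-50839124, plus strand: gggcgatgtgttctagcacctttgagcatt
Ripk3 probe, chr14:56403949-56404008, minus strand: tgaagtgtgccattcagcgtggcaataaaa
Pmp22 probe, chr11:62972989-62973048, plus strand: ctctgattttataccaactgtgtggactaa
The file places the probe named *Btg3* on a chromosome other than that of the RefSeq gene, so its assignment is uncertain. It was 13.06, 5.34, 5.37 and 12.84 in TM replicates 1 to 4 and 13.45, 13.17, 13.78 and 13.62 in TP. TM replicates 2 and 3 were far below the other 6 samples, which lay within 1 unit of each other. Its difference of 4.35 (SE 2.03) was not called (limma adjusted p = 0.49) and was 0.55 without TM replicates 2 and 3.

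*Ripk3*, the kinase of necroptosis, was 12.93, 6.87, 7.17 and 12.94 in TM and 12.93, 13.02, 12.66 and 12.38 in TP. *Pmp22*, a myelin protein also found in growth-arrested cells, was 10.96, 4.98, 4.95 and 11.13 in TM and 10.80, 10.51, 10.60 and 10.59 in TP, and its second probe repeated the order with 9.17, 7.19, 7.25 and 9.19 in TM. Levels in TM replicates 1 and 4 thus lay within or next to the TP range and those in TM replicates 2 and 3 far below it. *Tubb2b*, a beta tubulin, the carbonyl reductase *Cbr3*, *Echdc2* and *Gm1673* did likewise, with TM SDs of 3.34 to 3.53.

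The remaining genes of this set varied in TP as well. *Ccl8*, a chemokine for monocytes, was 11.47, 7.56, 5.11 and 14.58 in TM and 13.85, 14.34, 11.22 and 11.52 in TP. The protease inhibitor *Slpi* was 10.97, 8.48, 6.11 and 14.14 in TM and 14.04, 13.63, 9.94 and 10.83 in TP. For both, TM replicate 4 and TP replicates 1 and 2 were high, TM replicate 1 and TP replicates 3 and 4 intermediate and TM replicates 2 and 3 low. *Osmr*, the oncostatin M receptor, spanned 5.29 to 12.31 in TM and 10.26 to 12.38 in TP.

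**Figure D3:**
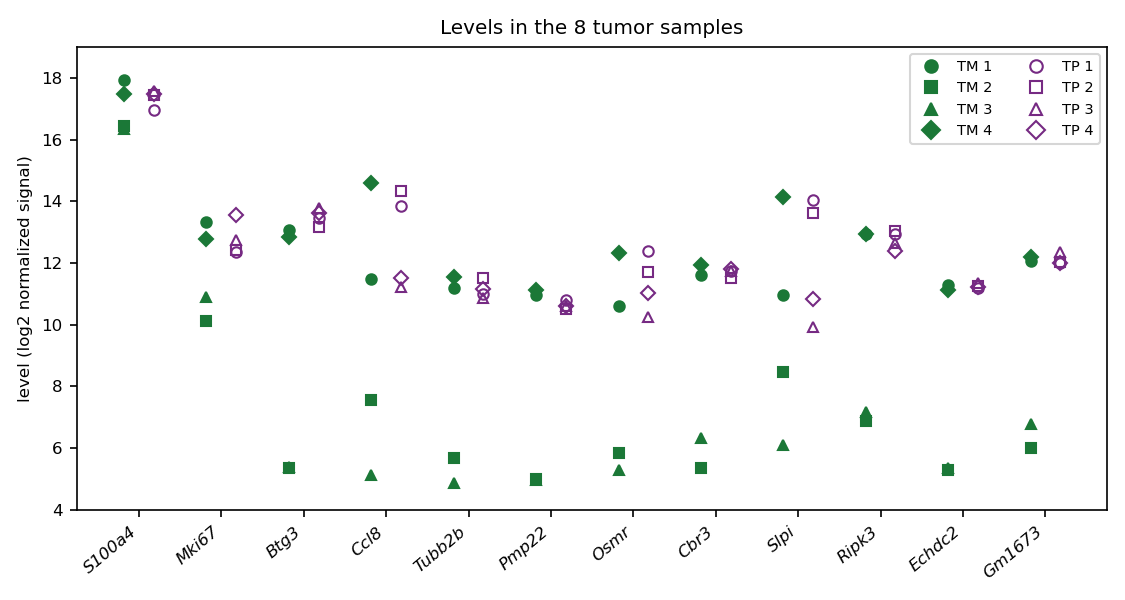
Levels (y axis, log2 normalized signal) of *S100a4*, *Mki67* and the 10 bright genes with the largest SD within TM in each of the 8 tumor samples, TM filled and TP open. TM replicates 2 (square) and 3 (triangle) are the lowest points of every gene shown, while TM replicates 1 and 4 lie among the TP samples or near them.

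Gene lists were then read member by member, with 1 probe per gene, as counts called in each direction and as the median difference. For each sample the deviation of a member from its own median over the 8 samples was taken, and the list is described by the median deviation of its members that were well above background in at least 4 samples. Members other than those with the largest difference of their list were picked for mention after their values were seen. No bright member of any list was called. Since few probes were called at all, 0 members called is near the background of 0.401% and 0.0916%, and does not show that members did not differ.

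Most cell cycle genes had their lowest levels in TM replicates 2 and 3. Of 33 genes 31 were bright and 0 were called (0 at an unadjusted limma p under 0.05), and the median difference was 1.00, against -0.01 over all probes. TM replicate 2 was the lowest of the 8 samples for 29 of the 31, whereas over all 24245 detected probes it was the lowest for 18.1%. The median deviation was -2.32 in TM replicate 2 and -1.86 in TM replicate 3, against 0.65 in TM replicate 1 and 0.10 in TM replicate 4 and -0.18 to 0.65 in TP.

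Among genes of mitosis, *Ccna2*, the cyclin of S phase and mitotic entry, had the largest difference (1.78, SE 1.02, limma adjusted p = 0.55). It was 13.13, 8.77, 9.53 and 12.38 in TM and 12.12, 12.26, 13.31 and 13.22 in TP. Its mean level in the liver cells was 3.58 in Cy3 and 5.03 in Cy5. With that dye difference subtracted its difference between TP and TM was 0.33. *Birc5*, survivin, was 15.05, 11.12, 11.73 and 14.54 in TM and 14.11 to 15.36 in TP. *Ccnb2*, a cyclin of mitosis, was 13.71, 9.89, 10.76 and 13.32 in TM and 12.86 to 13.77 in TP. TM replicates 1 and 4 thus lay within the TP range for these 3 genes.

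Replication genes had the same order of samples. *Rrm2*, a subunit of ribonucleotide reductase, was 13.31, 10.17, 10.78 and 12.88 in TM, and *Pcna*, the sliding clamp of DNA polymerase, 14.96, 13.80, 14.01 and 14.47. In TP *Pcna* ranged from 14.33 to 15.09. The differences of *Mcm2* (0.00) and *E2f1* (-0.08) were near 0. The median difference of the cell cycle list was -0.13 without TM replicates 2 and 3.

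Promoters of these genes carry the letters of known cell cycle elements. From the RefSeq table of the GRCm38.p6 build, which gives 300 bases per promoter, 27 of the 33 genes had an entry. CCAAT (or ATTGG on the other strand) was in 21 of the 27 and in 37.4% of all 32851 promoters. TTTGAA (or TTCAAA), the letters of the cell cycle homology region, was in 11 of the 27 and in 17.9% of all, and TTCGAA in 4 of the 27 and in 1.56% of all. Here and for the lists below a gene counted when any of its promoter entries held the letters, whereas the share of all is per entry. The gene counts can thus be high beside that share. A match is a description of these letters and does not show binding. The stretches below are from genes of the list with both motifs, in capitals, read along the strand of the gene.
Ccnb2, chr9:70421556-70421736, minus strand: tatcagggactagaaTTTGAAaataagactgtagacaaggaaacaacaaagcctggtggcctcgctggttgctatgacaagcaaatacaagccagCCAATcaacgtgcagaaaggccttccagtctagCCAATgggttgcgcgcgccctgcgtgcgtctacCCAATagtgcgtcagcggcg
Cdc20, chr4:118437344-118437411, minus strand: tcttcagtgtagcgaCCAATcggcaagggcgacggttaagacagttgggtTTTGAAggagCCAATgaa
Mki67, chr7:135716457-135716582, minus strand: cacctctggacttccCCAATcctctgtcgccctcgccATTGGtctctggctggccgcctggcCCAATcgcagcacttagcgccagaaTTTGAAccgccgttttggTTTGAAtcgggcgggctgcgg
*Cdc20*, the activator of the anaphase-promoting complex, was 13.94, 10.93, 10.97 and 13.60 in TM and 12.95, 13.58, 13.90 and 14.12 in TP. For all 3 genes TM replicates 2 and 3 were the lowest samples.

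Interferon response genes showed the reverse in TM replicate 2. Of 26 genes 25 were bright and 0 called (0 at an unadjusted limma p under 0.05), and the median difference was -0.44. TM replicate 2 was the highest of the 8 samples for 21 of the 25, against 17.8% over all detected probes, and its median deviation was 1.74. TM replicate 3 was at 0.31 and TP replicate 3 at 0.51, so both groups overlapped. The median difference was 0.18 without TM replicates 2 and 3.

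*Bst2*, tetherin, which holds virus particles at the cell surface, had the largest difference (-1.07, SE 0.56, limma adjusted p = 0.53). It was 12.73, 15.26, 14.53 and 13.11 in TM and 12.61, 12.89, 13.16 and 12.70 in TP. *Usp18*, which removes the ubiquitin-like modifier encoded by *Isg15*, was 10.16, 13.90, 12.64 and 10.99 in TM and 10.25 to 11.24 in TP. *Rsad2*, viperin, was 6.61, 9.68, 7.28 and 6.70 in TM and 6.11 to 7.78 in TP. In these genes TM replicate 2 was the highest sample.

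A few members of the list were flat or ordered otherwise. The transcription factor *Irf1* lay within 12.11 to 12.65 in all samples and the RNA sensor *Ddx58* within 11.68 to 12.13. *Cxcl10*, a chemokine for T cells, was 10.94 in TM replicate 2 but 7.97 in TM replicate 3, and reached 11.04 in TP replicate 3. Of the 20 genes of the list with a promoter entry, 12 held GAAA and, after any pair of bases, GAAA again (TTTC and TTTC on the other strand), the letters of the interferon-stimulated response element, against 3.44% of all promoters. The following stretches are from members highest in TM replicate 2, with the matches in capitals.
Rsad2, chr12:26456548-26456587, minus strand: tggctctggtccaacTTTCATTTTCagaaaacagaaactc
Isg15, chr4:156200860-156200911, minus strand: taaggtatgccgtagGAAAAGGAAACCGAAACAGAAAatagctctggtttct
Bst2, chr8:71537572-71537617, minus strand: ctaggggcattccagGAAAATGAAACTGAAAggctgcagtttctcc
*Isg15* was 13.09, 14.80, 13.54 and 12.97 in TM and 12.68, 12.99, 14.04 and 13.67 in TP, with TM replicate 2 the highest.

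**Figure D4:**
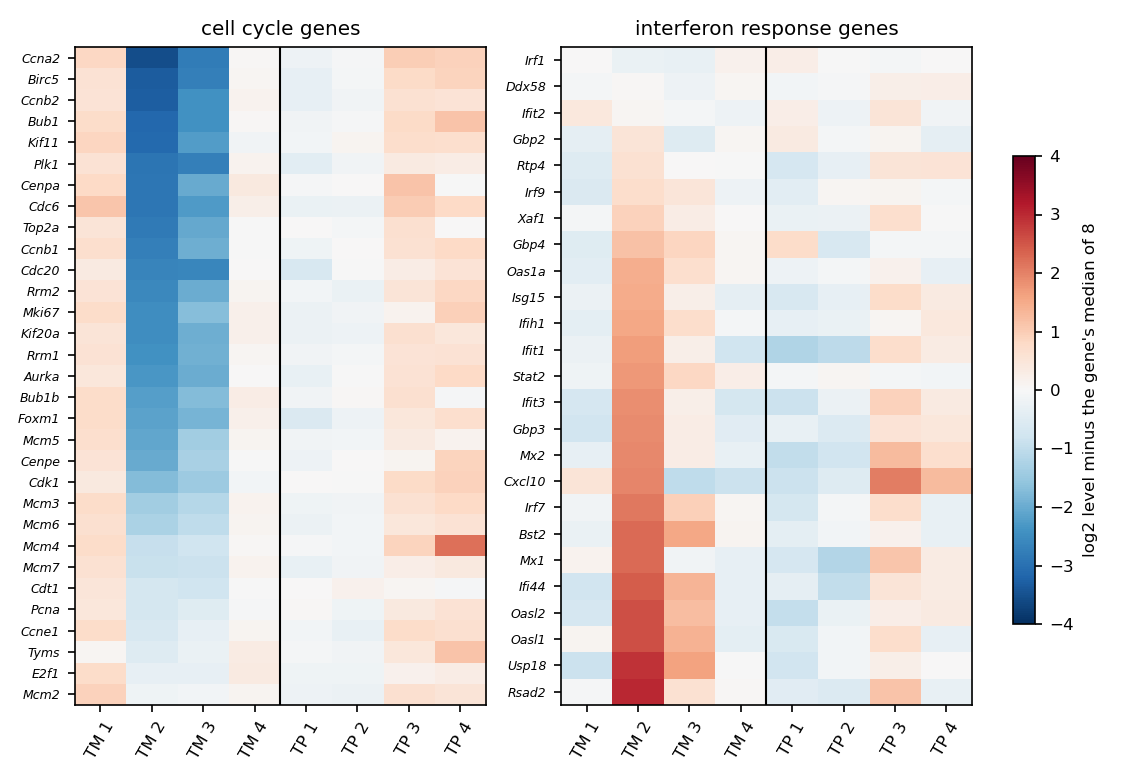
Level minus the median of the 8 samples (colour, log2) for the 31 bright cell cycle genes (left) and the 25 bright interferon response genes (right), with genes in rows and samples in columns. TM replicates 2 and 3 are low in nearly all cell cycle rows, and TM replicate 2 is the highest sample in 21 of the 25 interferon rows.

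Antigen presentation genes had a negative median difference (-0.50), with 14 of 18 detected and 0 called. TM replicate 2 was the highest sample for 7 of the 14 and TP replicate 4 the lowest for 8. *Tap2*, a subunit of the peptide transporter, was 11.93, 13.45, 12.86 and 12.37 in TM and 11.94, 12.03, 11.25 and 11.64 in TP (difference -0.94, SE 0.35, limma adjusted p = 0.42). *H2-D1*, a class I heavy chain, was 14.35, 15.74, 15.54 and 14.92 in TM and 14.79, 14.76, 13.98 and 13.91 in TP. TM replicate 1 lay within the TP range for both. The class II genes *H2-Aa* and *H2-Eb1* were at background level in all 8. Without TM replicates 2 and 3 the median difference of the list was -0.32.

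Chemokine and cytokine genes were lowest in TM replicate 3. Of 31 genes 19 were detected, 12 were bright and 0 were called, and the median difference was 0.57. TM replicate 3 was the lowest sample for 15 of the 19 (15.4% over all detected probes), and the median deviation was -3.11 there, -1.68 in TM replicate 2, 1.33 in TM replicate 4 and 1.11 in TP replicate 1. *Ccl2*, the main chemokine for monocytes, was 14.73, 10.84, 10.48 and 15.04 in TM and 15.42, 15.02, 14.82 and 14.75 in TP. *Ccl7*, a relative of it, was 12.60, 8.78, 6.68 and 13.72 in TM and 12.08 to 13.53 in TP. Both were lowest in TM replicates 2 and 3, and TM replicates 1 and 4 lay within or next to the TP range.

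The neutrophil chemokine *Cxcl5* covered the widest range of the list, from 2.18 in TM replicate 3 through 5.39, 10.63 and 13.20 in TM replicates 2, 1 and 4, and was 14.60, 13.21, 10.65 and 11.33 in TP. It was well above background in 3 of 4 TM samples. *Il6*, the cytokine of the acute phase, followed it with 8.13, 4.85, 2.01 and 10.74 in TM and 11.41, 10.28, 8.01 and 8.42 in TP. *Csf2*, a growth factor of granulocytes and macrophages, went the other way: it was 6.41 and 7.17 in TM replicates 2 and 3, where it was well above background, and 2.22 to 3.49 in the other 6 samples. *Csf1* lay between 11.14 and 12.06 throughout. The median difference of the list was -0.25 without TM replicates 2 and 3.

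Macrophage markers were also low in TM replicate 3 and high in TM replicate 4. Of 20 markers 15 were detected and 0 called, and the median difference was 0.21, and -0.85 without TM replicates 2 and 3. TM replicate 3 was the lowest sample for 8 and TM replicate 4 the highest for 8 of the 15. The summed signal of the list ranged from 13.45 to 14.997 (log2) in TM and from 13.50 to 14.97 in TP. *Lyz1*, lysozyme, had the largest difference (1.89, SE 1.40, limma adjusted p = 0.62), with 12.61, 8.69, 7.33 and 12.94 in TM and 13.53, 12.47, 12.43 and 10.69 in TP.

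*Tyrobp*, an adaptor of myeloid receptors, was 10.88, 7.76, 5.99 and 11.78 in TM and 11.31, 10.07, 9.84 and 8.53 in TP. *Emr1*, the F4/80 antigen, was 8.73, 3.04, 2.19 and 8.66 in TM and 7.99, 7.13, 8.37 and 6.08 in TP, and was well above background in 2 TM and 3 TP samples. *Cd14*, in contrast, was 11.63, 11.88, 11.83 and 12.61 in TM and 10.36 to 11.96 in TP. For the Kupffer cell markers *Clec4f* and *Timd4* no sample was well above background. In such bulk samples fewer cells of a type and less RNA per cell cannot be told apart, and the part of macrophages in the chemokine values was not tested.

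Fibroblast and stellate cell markers were highest in TM replicate 4, in 8 of the 12 detected. Of 17 markers 0 were called, the median difference was 0.07 (-0.28 without TM replicates 2 and 3), and the summed signal ranged from 15.71 to 17.56 in TM and from 16.33 to 17.40 in TP. *Col1a1*, a chain of fibrillar collagen, was 12.22, 7.62, 7.37 and 12.26 in TM and 11.32, 11.71, 11.44 and 12.02 in TP (difference 1.76, SE 1.27, limma adjusted p = 0.62). *Col3a1* was 13.32, 9.87, 9.74 and 13.92 in TM and 13.09 to 13.56 in TP. *Dcn*, decorin, grouped the samples otherwise, with 14.59, 14.06, 14.43 and 16.60 in TM and 16.55, 16.08, 14.67 and 14.88 in TP.

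*Dcn* was thus high in TM replicate 4 and TP replicates 1 and 2 and lower in the other 5 samples. The stellate cell genes *Lrat* and *Reln* were at background level in all samples. *Pdgfrb*, a receptor of pericytes, was higher in TM replicates 2 and 3 (9.75 and 9.60) than in the other 6 samples (7.99 to 8.66).

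Of 26 matrix genes 20 were bright and 0 called, the median difference was 0.02 and it was -0.31 without TM replicates 2 and 3. *Lama5*, *Col4a1* and *Col18a1*, all of basement membranes, were highest in TM replicates 2 and 3, whereas the fibrillar collagen genes *Col1a1* and *Col3a1* were lowest there. *Col18a1*, the source of endostatin, was 8.42, 11.15, 11.0003 and 9.10 in TM and 8.12 to 9.05 in TP. *Fn1*, fibronectin, varied little, between 15.06 and 16.35. *Spp1*, osteopontin, was 15.65, 15.78, 16.28 and 15.66 in TM and 15.61, 15.58, 15.56 and 15.40 in TP, without overlap but also without a call (difference -0.30, SE 0.15, limma adjusted p = 0.52).

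Matrix proteases and their inhibitors had 22 of 25 genes detected and 0 called, with a median difference of 0.16 (-0.22 without TM replicates 2 and 3). *Timp3*, an inhibitor bound to the matrix, was 11.40, 5.42, 5.85 and 10.38 in TM and 10.54, 10.14, 11.05 and 11.39 in TP (difference 2.52, SE 1.44, limma adjusted p = 0.55). *Plau*, urokinase, was 9.82, 2.26, 2.21 and 10.29 in TM and 9.75 to 10.96 in TP, and was well above background in 2 of 4 TM samples. The gelatinase *Mmp2* was 10.49, 8.09, 6.22 and 12.33 in TM and 11.98, 12.40, 10.21 and 10.20 in TP. These genes again placed TM replicates 2 and 3 below the rest. *Timp2* separated the groups, with 15.51, 16.17, 16.00 and 15.67 in TM and 15.12, 15.24, 14.80 and 15.27 in TP, and was not called (difference -0.73, SE 0.18, limma adjusted p = 0.26).

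Genes of the epithelial-mesenchymal transition, in which epithelial cells lose their junctions and gain motility, had 13 of 20 members bright and 0 called, with a median difference of 0.05. The largest difference was that of *Itgb4*, a partner of the laminin receptor integrin alpha 6, with 9.57, 10.94, 10.85 and 9.73 in TM and 9.33, 9.99, 7.46 and 7.64 in TP (difference -1.67, SE 0.67, limma adjusted p = 0.45). *Snai1*, a repressor of E-cadherin, was 9.31, 9.62, 9.31 and 8.96 in TM and 8.15, 8.60, 8.36 and 8.56 in TP. Its groups did not overlap and TM replicates 2 and 3 did not stand apart, but the difference of -0.88 (SE 0.16) had a limma adjusted p of 0.14. Its relative *Snai2* was 11.38, 9.28, 9.68 and 10.83 in TM and 11.24 to 11.62 in TP.

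Mesenchymal genes were bright in both groups: *Vim*, vimentin, was 15.27 to 16.90 in TM and 15.88 to 16.48 in TP, and *Sparc* 14.80 to 16.62 and 15.85 to 16.32. *Cdh1*, E-cadherin, and *Epcam*, both markers of epithelial cells, were at background level in all 8 samples. Of 20 colon epithelial markers 7 were detected, and for 7 no sample was well above background, *Cdx1*, *Cdx2*, *Muc2* and *Vil1* among them. The 3 bright markers were *Krt18* (9.57 to 12.002), *Krt20* (9.40 to 12.69) and *Lgals4*, which was 7.004, 9.63, 9.99 and 7.73 in TM and 7.09 to 7.82 in TP. In all, 13 of the 20 markers were well above background in at least 1 sample.

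In the Wnt pathway, a frequent driver of colorectal cancer, 12 of 22 genes were detected and 0 were called. *Ctnnb1*, beta-catenin, was 12.56, 11.86, 12.05 and 12.90 in TM and 13.02, 13.17, 12.93 and 13.33 in TP, without overlap (difference 0.77, SE 0.24, limma adjusted p = 0.35). *Dkk3* was 10.18, 4.91, 5.03 and 12.10 in TM and 10.10 to 11.72 in TP, and *Lef1*, a transcription factor of the pathway, 4.88, 9.41, 9.07 and 5.09 in TM and 3.80 to 6.84 in TP. The first was thus lowest and the second highest in TM replicates 2 and 3. The target gene *Ccnd1* lay between 12.88 and 13.92 in all samples.

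In the TGF-beta and BMP pathway 22 of 24 genes were detected and 0 called, with a median difference of 0.18 (-0.17 without TM replicates 2 and 3). The BMP targets *Id1*, *Id2* and *Id3* were low in TM replicates 2 and 3: *Id1* was 12.56, 8.44, 8.45 and 11.19 in TM and 10.78, 11.71, 12.22 and 12.09 in TP (difference 1.54, SE 1.00, limma adjusted p = 0.58). *Bmp4*, one of their ligands, was 10.94, 8.06, 9.66 and 10.47 in TM and 9.85 to 11.26 in TP. *Smad4*, the shared signal mediator that many colorectal cancers lose, was 11.96, 11.76, 11.65 and 12.09 in TM and 12.22, 12.34, 12.12 and 12.56 in TP, without overlap and without a call (difference 0.45, SE 0.14, limma adjusted p = 0.34). *Smad2*, *Smad3* and *Tgfbr2* overlapped between groups.

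Of 18 S100 family genes listed 14 were detected, and the median difference was 0.26 (-0.11 without TM replicates 2 and 3). *S100a6*, which lies beside *S100a4* in the genome, was 17.88, 16.60, 16.22 and 17.23 in TM and 17.10 to 17.45 in TP, in the order of *S100a4*. *S100a10*, a partner of annexin A2, was 13.99, 14.25, 14.52 and 13.63 in TM and 13.34, 13.36, 13.81 and 13.73 in TP (difference -0.54, SE 0.21, limma adjusted p = 0.45). The largest difference among bright members was that of *S100a1* (0.82, SE 0.53, limma adjusted p = 0.58). *S100z* was the only list member called, higher in TP, but all 8 samples were at background level, so that no fold is given. *S100a8* and *S100a9*, which fill the cytosol of neutrophils, were at 8.27 and 8.79 in TM replicate 4, the only TM sample where they were well above background.

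Targets of p53, which arrest the cell cycle or start apoptosis, had 19 of 20 genes detected and 0 called. TM replicate 2 was the highest sample for 9 of the 19. *Cdkn1a*, the inhibitor p21 of cyclin-dependent kinases, was 10.42, 12.83, 12.35 and 10.30 in TM and 10.20 to 10.9999 in TP. *Mdm2*, the ligase that degrades p53, was 12.52, 14.67, 14.49 and 12.54 in TM and 13.11 to 13.39 in TP. Both were highest in TM replicates 2 and 3 and lowest, or nearly so, in TM replicates 1 and 4.

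Other targets went the opposite way. *Pmaip1*, the apoptosis gene Noxa, was 7.09, 2.34, 2.23 and 8.80 in TM and 8.37 to 9.19 in TP, and the death receptor *Fas* 8.50, 6.52, 6.06 and 9.46 in TM and 8.21 to 10.20 in TP (difference 1.43, SE 0.87, limma adjusted p = 0.57). *Trp53* itself lay between 7.47 and 8.59. The median difference of the list was 0.14.

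Genes of the integrated stress and unfolded protein responses were all detected (22 of 22) and 0 were called. *Ddit3*, the factor CHOP, was 9.09, 12.69, 12.38 and 8.996 in TM and 10.99, 10.68, 9.84 and 8.47 in TP. *Trib3* was 12.27, 14.23, 14.31 and 11.46 in TM and 14.30, 14.33, 11.91 and 11.50 in TP, so that TP replicates 1 and 2 were as high as TM replicates 2 and 3. *Psat1*, an enzyme of serine synthesis, had the largest difference (0.81, SE 0.36, limma adjusted p = 0.48). The chaperone *Hspa5* lay within 15.01 to 15.85. The largest difference among heat shock genes was that of the small chaperone *Hspb1* (0.96, SE 0.89, limma adjusted p = 0.68), with 9.66, 6.64, 6.51 and 10.04 in TM and 8.76 to 9.39 in TP. The list had a median difference of -0.19, with *Hsf1*, their main activator, at 10.61, 11.10, 11.01 and 10.54 in TM and 10.11, 10.37, 10.23 and 10.39 in TP (difference -0.54, SE 0.15, limma adjusted p = 0.31).

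Glycolysis and hypoxia genes had 23 of 24 members detected and 0 called, with a median difference of 0.11 (-0.07 without TM replicates 2 and 3). *Ndrg1*, a gene of hypoxia, was 12.42, 14.46, 14.72 and 13.61 in TM and 13.27, 13.39, 12.45 and 11.98 in TP (difference -1.03, SE 0.57, limma adjusted p = 0.54). *Vegfa* was 10.02, 12.19, 12.20 and 10.46 in TM and 10.20 to 11.28 in TP. The lactate exporter *Slc16a3* was 12.92, 10.50, 10.47 and 13.70 in TM and 12.62 to 13.01 in TP. These hypoxia targets thus differed in direction in TM replicates 2 and 3. *Slc2a1*, the glucose transporter GLUT1, was 11.83, 11.49, 11.41 and 12.33 in TM and 12.31 to 12.61 in TP (difference 0.68, SE 0.21, limma adjusted p = 0.33).

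Among immediate early genes *Klf2* had the largest difference (-1.27, SE 0.63, limma adjusted p = 0.51), with 7.80, 10.38, 10.09 and 8.08 in TM and 7.48 to 8.05 in TP. *Klf4* and *Klf6* were likewise highest in TM replicates 2 and 3, whereas *Jun* was lowest there, with 11.26 and 11.31 against 12.86 to 13.47 in the other 6 samples. *Myc* lay between 9.58 and 10.50. The list had 20 of 22 members detected and 0 called.

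Cholesterol and fatty acid synthesis genes had 23 of 25 members bright and 0 called, with a median difference of 0.14 that was -0.27 without TM replicates 2 and 3. TM replicate 2 was the lowest sample for 11 of the 23. *Hmgcs1*, an early enzyme of cholesterol synthesis, was 12.44, 11.19, 11.37 and 12.52 in TM and 12.24 to 13.35 in TP (difference 0.79, SE 0.40, limma adjusted p = 0.52), and *Insig1*, which holds the pathway back, was 8.71, 9.76, 10.09 and 8.63 in TM and 8.22 to 9.15 in TP. CCAAT was in a promoter of 14 of the 16 genes with an entry, and in 37.4% of all promoters.

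The medians of both housekeeping lists stayed close to 0 in every sample. All 33 ribosomal protein genes were bright, with median deviations of -0.06 to 0.10 per sample and a median difference of 0.12. *Rpl10* differed most (0.71, SE 0.24, limma adjusted p = 0.38), but its further bright probes gave only 0.19 and 0.19. All 25 genes of oxidative phosphorylation were bright, with a largest difference for *Ndufa4* (-0.66, SE 0.31, limma adjusted p = 0.49), a median difference of -0.03 and median deviations of -0.07 to 0.10. Single members did vary, with a median SD of 0.23 in TM and 0.12 in TP for ribosomal genes and of 0.26 and 0.12 for oxidative phosphorylation. *Rpl10* was 17.12 in both TM replicates 2 and 3, the lowest of the 8 samples, and *Ndufa4* was 13.90 and 13.98 there, the highest.

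**Figure D5:**
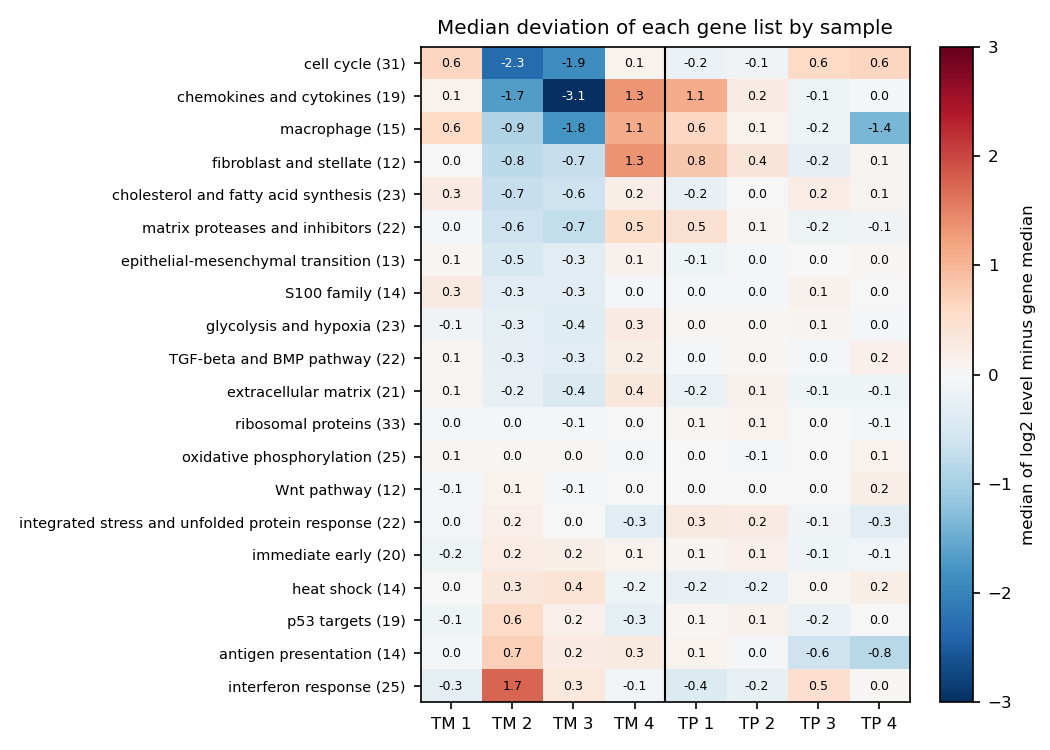
Median deviation (colour and number, log2) of each gene list in each of the 8 tumor samples from the genes' own medians, for the lists with at least 10 members detected (number in brackets). TM replicates 2 and 3 are at -2.3 and -1.9 for cell cycle genes and at 1.7 and 0.3 for interferon response genes, while the medians of ribosomal protein and oxidative phosphorylation genes stay within 0.1 of 0 in all samples.

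No marker of a further cell type was called. For 10 of 20 hepatocyte markers no sample was well above background, *Alb* (2.19 to 3.94), *Ttr*, *Apoa1* and *Hnf4a* among them, and the summed signal was 10.59 to 13.50 in TM and 11.08 to 13.62 in TP. The sum was highest in TM replicate 4 and TP replicates 1 and 2, and only there was most of it *Hp*, haptoglobin. *Hp* was 8.65, 8.53, 3.63 and 12.89 in TM and 13.03, 13.22, 7.32 and 9.28 in TP. For 8 of 16 endothelial markers no sample was well above background, *Cdh5*, *Tek* and *Stab2* among them. *Kdr*, the only bright one, was 12.24, 12.68, 12.48 and 12.79 in TM and 12.08 to 12.91 in TP. Its difference was -0.03 (SE 0.22, limma adjusted p = 0.97). *Eng*, endoglin, was 6.36, 7.39, 7.35 and 6.66 in TM and 5.38 to 6.29 in TP. The summed endothelial signal was 12.36 to 12.95 in TM and 12.19 to 12.99 in TP. Summed signals of the other blood cell lists overlapped between TM and TP as well. They were 14.38 to 14.88 and 14.41 to 14.70 for neutrophils, and 11.41 to 11.86 and 11.41 to 12.02 for T and NK cells. For B cells they were 7.996 to 8.69 and 7.99 to 8.61, and for the erythroid list 13.35 to 13.77 and 13.61 to 14.09. A sum can be carried by 1 gene and so does not measure the content of a cell type. *Hemgn* alone was 13.30 to 13.75 in TM and 13.58 to 14.08 in TP, near the erythroid sum. *Kdr* alone came near the endothelial sum in each sample. *Lcn2*, at 7.69 to 10.32, lay far below the neutrophil sum. The largest difference among bright T and NK cell markers was that of the kinase *Lck* (1.01, SE 0.41, limma adjusted p = 0.45). In the hepatocyte list it was that of *Ass1* (1.14, SE 0.75, limma adjusted p = 0.59). In the erythroid list it was that of *Hemgn* (0.31, SE 0.15, limma adjusted p = 0.50). Among neutrophil markers it was that of *Lcn2* (0.27, SE 0.67, limma adjusted p = 0.88). Among B cell markers it was that of *Cd22* (-0.13, SE 0.30, limma adjusted p = 0.86).

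The Y-linked gene *Eif2s3y* was 4.31, 1.96, 1.96 and 5.33 in TM and 5.97, 2.04, 2.02 and 2.77 in TP, whereas the liver cells of the series had means of 11.04 in Cy3 and 11.15 in Cy5. It was well above background in 1 TM and 1 TP sample. *Uty*, *Kdm5d* and *Xist* were at background level in all 8 tumor samples.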

How the data were processed

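RNA of the TP and TM samples was read on 2-colour Agilent arrays. The authors deposited the scanner output of each array, whose processed signal is a linear intensity that the scanner software had background-subtracted and dye-normalized, and a value table of quantile-normalized linear intensities. From the deposited intensities control spots and outlier spots (132 to 189 per channel) were left out, log2 was taken, spots of one probe were averaged and all 32 channels were quantile-normalized, the method that the study names. Groups were compared with limma 3.58.1 (lmFit and eBayes in R 4.3.3, with the data.table package, version 1.17.8) on the 8 tumor samples, with Benjamini-Hochberg adjustment over 55648 probes. Promoter motifs and figures used Python 3.11.15, pandas 2.3.3 and matplotlib 3.10.9. The limma fit of both groups, with and without the array as a block, was tested on simulated data, and the other steps were not. The number of arrays limits the precision, and intensity has no counting error to give an interval.

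Members and gene lists were chosen with earlier results of these data known. Named were the bright called genes, the bright non-overlapping genes with the largest differences filled up to 12 in each direction, the 10 with the largest SD in TM, both markers and the bright member of each list with the largest difference. Each list member was read from its probe of highest mean level. Other members were picked for mention after their values were seen. The same number in TM and TP marks a shared array, as the scanner files show. The correlations of the deviations of same-numbered samples were -0.18, 0.19, -0.08 and -0.06. Alternatives were normexp background correction with quantile or with loess and Aquantile normalization, scaling to the 75th percentile, quantile normalization of 8 channels, the deposited values, filters on dim probes, the array as a block, all 8 groups in the fit with and without subtraction of the Cy5 minus Cy3 difference of the liver cells, array weights, the test the study names, stricter thresholds and leaving out samples.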

Additional observations from a re-analysis of the deposited data

Results flagged for a closer look

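In *Pes1* TM replicate 2 lay at 10.87 while the nearest of the other TM samples was at 11.13, a gap of 0.874 of the range of the group. In *Gm1673* TP replicate 3 lay at 12.37 and the nearest TP sample at 12.04, a gap of 0.897 of the range. Both exceed the 95% critical value of Dixon's test for 4 samples (0.829). They are 2 of 120 groups tested (1.67%), and chance marks about 1 in 20 groups.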

How the results depend on the processing

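Against 223 probes called higher and 51 lower in TP, of which 16 and 0 were bright, the counts moved as follows. Normexp with quantile normalization gave 119 higher and 0 lower, and normexp with loess and Aquantile 110 and 2 (2 bright lower). Scaling to the 75th percentile, which shifts the median of all probes to 0.11, gave 23 lower and 6 bright higher. Quantile normalization of the 8 tumor channels gave 32 lower (1 bright), and the deposited values a count of 1 bright lower. With only probes well above background in all 4 samples of a group tested, 134 were higher (8 bright) and 0 lower, and with only bright probes tested 1 higher and 0 lower. With the array as a replicate block, 60 were higher (2 bright) and 0 lower. All 8 groups in the fit gave 1112 and 507 (145 and 111 bright). Subtraction of the liver cell difference between dyes gave 251 higher (17 bright) and 134 lower (21 bright). Array weights gave 94 lower (6 bright), and the test the study names 30 lower, with 10 bright higher and 2 bright lower. Without TM replicates 2 and 3, chosen after seeing the data, 143 were higher (2 bright) and 92 lower. At an adjusted p under 0.001 and at least 4-fold, 57 were higher (0 bright) and 0 lower, and at 0.05 and at least 2-fold 7 were bright and higher. Leaving out 1 sample at a time gave 171 to 214 higher and 35 to 80 lower, and among bright probes 4 to 11 higher and 0 to 2 lower. The count of lower probes moved most without TM replicate 1 (80), and that of bright higher probes without TM replicate 2, TM replicate 3 or TP replicate 1 (4 each).

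With the dye difference of the liver cells subtracted, *Elp5* (-0.24), *Fdxacb1* (-0.47) and *Gxylt2* (-0.30) turned in direction and *S100a4* moved to -1.28. *Yars* (2.09, limma adjusted p = 0.0039) and *Vwa5b2* (0.96, limma adjusted p = 0.0013) kept their calls there. The other bright named genes called higher in TP lost theirs, with a limma adjusted p of 0.056 to 0.87. That subtraction also takes off the difference between liver cells of tumor-bearing and control mice. Over all alternatives the named genes lost a call in 158 cases and gained one in 12. Of 1378 values of named genes and markers 35 changed sign, 21 of them without TM replicates 2 and 3. Among these 21 were *Pmp22* (-0.42), *Tubb2b* (-0.23), *Col1a1* (-0.61), *Ass1* (-0.19) and *Lgals4* (0.12). *Ccna2* (-0.03), *Timp3* (-0.11), *Lyz1* (-0.50), *Id1* (-0.17) and *Hspb1* (-0.68) also changed sign without TM replicates 2 and 3. The cause of these changes was not tested. Dim probes carry most calls, and dye and group cannot be told apart.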

Other observations

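A few dim probes read high on both channels of 1 array and low elsewhere. *Gata1*, an erythroid transcription factor, was at 8.11 in TM replicate 1 and 7.99 in TP replicate 1. *Epb4.2*, a protein of the red cell membrane, was at 7.05 in TM replicate 3 and 6.96 in TP replicate 3. *Lgr5*, the receptor of intestinal stem cells, was at 6.27 in TM replicate 2 and 6.76 in TP replicate 2, and *Dsp*, desmoplakin, at 5.94 and 6.15 in the same samples.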
